A study of Mus musculus with 10 samples.

Results

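Tropomyosins, tropomodulins and leiomodins are the 3 protein families that line actin filaments and manage their pointed ends. The 10 genes described here were taken by name from the 35275 genes of the count table. They are the 4 tropomyosins Tpm1, Tpm2, Tpm3 and Tpm4, the 3 tropomodulins Tmod1, Tmod3 and Tmod4, and the 3 leiomodins Lmod1, Lmod2 and Lmod3. Their mRNA was measured by RNA-seq in C2C12 cells, an established mouse myoblast line that fuses into myotubes when serum is withdrawn. The 5 day 6 libraries came from cells kept for 6 days in differentiation medium (DMEM with horse serum), and the 5 libraries before differentiation came from cells in growth medium (DMEM with fetal bovine serum), taken just before the switch. All 10 libraries share this single unmodified line, and no animal tissue was included. The labels do not state whether libraries of a condition are separate cultures, so p-values measure the spread between libraries, which may be technical.

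Tropomyosins are coiled-coil proteins that pair up and join end to end along the groove of the actin filament. In striated muscle they carry the troponin complex and move aside when calcium rises, which opens the filament to myosin. Cytoskeletal forms stabilize stress fibres in nonmuscle cells. Tropomodulins cap the slow-growing pointed end and bind tropomyosin there. Leiomodins are their larger relatives, which also bind at the pointed end but can start or lengthen filaments, so the balance of the families bears on how long thin filaments become. Tpm genes can yield several proteins through alternative promoters or exons. The counts analysed here are totals per gene, so muscle and cytoskeletal products of Tpm1, Tpm2 or Tpm3 cannot be told apart. GENCODE M21 lists 16 protein-coding transcripts for Tpm1, with start sites in 2 clusters over 500 bases apart, 4 for Tpm2, 7 for Tpm3, in 3 clusters, and 1 for Tpm4.

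The RefSeq promoter table (GRCm38.p6, the assembly called mm10) held 9 windows for 8 of the 10 genes, Tpm3 having 2, and each window runs from 250 bases before a start site to 50 bases after it. Shown here are the stretches before the genes with the largest increase, Lmod2 (chr6:24597521-24597800, plus strand), a smaller increase, Lmod1 (chr1:135324563-135324836, plus strand), no change past the test, Tmod4 (chr3:95124264-95124505, plus strand), and a decrease, Tpm3 (chr3:90072401-90072678, plus strand, the first of its windows). Each ends 30 bases into the gene. Capitals mark the E-box CANNTG, a general pattern that includes sites of MyoD and myogenin but is wider than these. They also mark the MCAT element CATTCC on either strand, the core bound by TEAD factors. The marked motifs do not overlap each other.
Lmod2: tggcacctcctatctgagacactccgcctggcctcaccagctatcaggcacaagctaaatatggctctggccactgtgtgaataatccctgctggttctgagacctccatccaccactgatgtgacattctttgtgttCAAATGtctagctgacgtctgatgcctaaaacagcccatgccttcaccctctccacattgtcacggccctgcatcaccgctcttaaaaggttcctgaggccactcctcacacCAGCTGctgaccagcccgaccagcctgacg
Lmod1: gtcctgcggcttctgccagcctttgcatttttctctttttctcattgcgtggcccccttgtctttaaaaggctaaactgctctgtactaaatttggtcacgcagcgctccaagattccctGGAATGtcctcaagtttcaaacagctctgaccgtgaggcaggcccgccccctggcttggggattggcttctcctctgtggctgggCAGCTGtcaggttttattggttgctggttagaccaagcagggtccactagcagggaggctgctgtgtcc
Tmod4: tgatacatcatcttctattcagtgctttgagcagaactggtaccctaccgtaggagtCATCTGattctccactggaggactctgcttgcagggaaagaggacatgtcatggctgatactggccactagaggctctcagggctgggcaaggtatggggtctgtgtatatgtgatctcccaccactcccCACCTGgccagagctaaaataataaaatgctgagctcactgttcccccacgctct
Tpm3: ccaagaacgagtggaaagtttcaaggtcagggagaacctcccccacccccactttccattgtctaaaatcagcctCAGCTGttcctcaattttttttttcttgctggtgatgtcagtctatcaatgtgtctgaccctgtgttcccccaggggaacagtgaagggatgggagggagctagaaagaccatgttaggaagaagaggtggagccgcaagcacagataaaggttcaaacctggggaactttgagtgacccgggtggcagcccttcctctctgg

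An E-box was found in 8 of the 9 windows, and Tmod1 was the exception. Over all 32851 promoter windows of the same length 72.3% held at least 1 E-box, so these letters are common. The MCAT element was in 3 of the 9 windows, those of Lmod1, Tmod1 and Tpm1, against 14.7% of all windows. None of the 9 held the CArG box of serum response factor (1.63% of all windows) or the MEF2 site (3.19% of all windows), both searched on either strand. A match describes letters only, and the lack of a match says nothing of sites outside the window. For 3 of the 9 windows, those of Tpm2 and Tpm4 and the later one of Tpm3, no GENCODE M21 transcript held the bases just after the start.

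The counts of a library summed to between 15367909 and 20509280 on day 6 and to between 16288532 and 21622527 before differentiation. Of all genes, 13085 passed the filter on low counts and were tested with edgeR, and 79.8% of them were called at an adjusted p under 0.05, 40.1% higher and 39.7% lower on day 6. Libraries of the conditions did not overlap in CPM (counts scaled to library size) for 69.1% of the genes tested. All 6 markers of myotubes were higher and all 6 markers of dividing myoblasts were lower on day 6. Of 6 fibroblast markers, 5 were tested and all 5 were higher. Summed over the list they came to 4181 to 5180 CPM on day 6 and 1004 to 1122 CPM before differentiation, mostly from Col3a1 (means of 4149 and 959 CPM). Only Thy1 stayed near 0, with 0 and 2 counts in all. Their part in the results that follow was not tested. Of the markers of fat, bone, nerve, blood and vessel cells, none of those tested was higher on day 6. Few could be tested, 1 of 5 for fat, 2 of 5 for bone, 2 of 5 for nerve, and 1 of 7 for blood and vessel cells. These are bulk libraries, so fewer cells of a type and less RNA per cell cannot be told apart.

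All 10 genes passed the filter, and 9 of them were called, where 79.8% of all genes were. Tpm1, Tpm2, Tmod1, Lmod1, Lmod2 and Lmod3 were higher on day 6, which makes 6 against a background of 40.1%. Tpm3, Tpm4 and Tmod3 were lower, which makes 3 against 39.7%, and Tmod4 was not called. Against a change of more than 1 log2, 5 genes were higher (Tpm2, Tmod1, Lmod1, Lmod2 and Lmod3), where 14.5% of all genes were, and 1 was lower (Tpm4), where 11.5% were. The libraries of the conditions did not overlap for 9 of the 10 genes, against 69.1% of all genes. The median log2 fold change was 2.10 over the 10 genes and 0.01 over all genes tested. Together the 10 genes took 0.476 ± 0.0386% of a library's counts on day 6 and 0.271 ± 0.00695% before differentiation (SD, n = 5).

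Tpm2 and Tpm1, which encode the beta and alpha chains of striated muscle tropomyosin, rose. Tpm2 lies on chromosome 4 of mm10 from 43514711 to 43523765. Levels are given as FPKM, fragments scaled to gene length and to the library's total count. In replicates 1 to 5 Tpm2 stood at 1137, 1221, 1049, 1071 and 935 FPKM on day 6, against 93.9, 86.5, 89.8, 91.6 and 96.9 FPKM before differentiation. The lowest day 6 library was far above the highest before differentiation, and Tpm2 was the most abundant of the 10 genes on day 6. Its level averaged 1083 ± 106 FPKM on day 6 and 91.8 ± 3.98 FPKM before differentiation (SD, n = 5), an 11.97-fold increase (log2 fold change 3.58, standard error 0.0713, edgeR adjusted p = 6.90e-18). Tpm1 lies on chromosome 9 from 67022590 to 67049406. It was at 445, 434, 366, 382 and 373 FPKM on day 6, against 269.7, 265, 251, 261 and 276 FPKM before differentiation. The conditions did not overlap, and day 6 replicates 1 and 2 were the highest. Its rise was 1.53-fold (log2 fold change 0.62, standard error 0.0602, edgeR adjusted p = 2.98e-08), the smallest increase among the genes called higher, and it did not pass the test against a change of more than 1 log2.

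Tpm4 and Tpm3 fell. Tpm4 encodes a cytoskeletal tropomyosin of stress fibres and lies on chromosome 8 from 72134975 to 72153142. It was at 122, 117, 119, 126 and 140.5 FPKM on day 6, against 514, 490.5, 477, 491 and 487 FPKM before differentiation. The ranges were far apart, and Tpm4 was the most abundant of the 10 genes before differentiation. It averaged 125 ± 9.38 FPKM on day 6 and 492 ± 13.7 FPKM before differentiation (SD, n = 5), a 3.89-fold decrease (log2 fold change -1.96, standard error 0.0509, edgeR adjusted p = 2.44e-16). Tpm4 shares 134 exon bases with the antisense transcript Gm26586, which had 4 to 28 counts on day 6 and 12 to 54 before differentiation. Tpm3 encodes the gamma chain, used in slow muscle fibres and, as other products, in the cytoskeleton, and lies on chromosome 3 from 90072649 to 90100902. It was at 174, 165, 136, 136 and 133 FPKM on day 6, against 259.9, 243, 244, 259 and 248 FPKM before differentiation. All day 6 libraries were below all others, with replicates 1 and 2 the least reduced. The decrease was 1.66-fold (log2 fold change -0.73, standard error 0.0733, edgeR adjusted p = 9.93e-08). Tpm3-rs7, a retrogene copy of Tpm3, had 21 to 34 counts on day 6 and 61 to 91 before differentiation, 0.5996% of the counts of Tpm3 over all libraries, and how reads that match both were split was not tested.

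**Figure D1:**
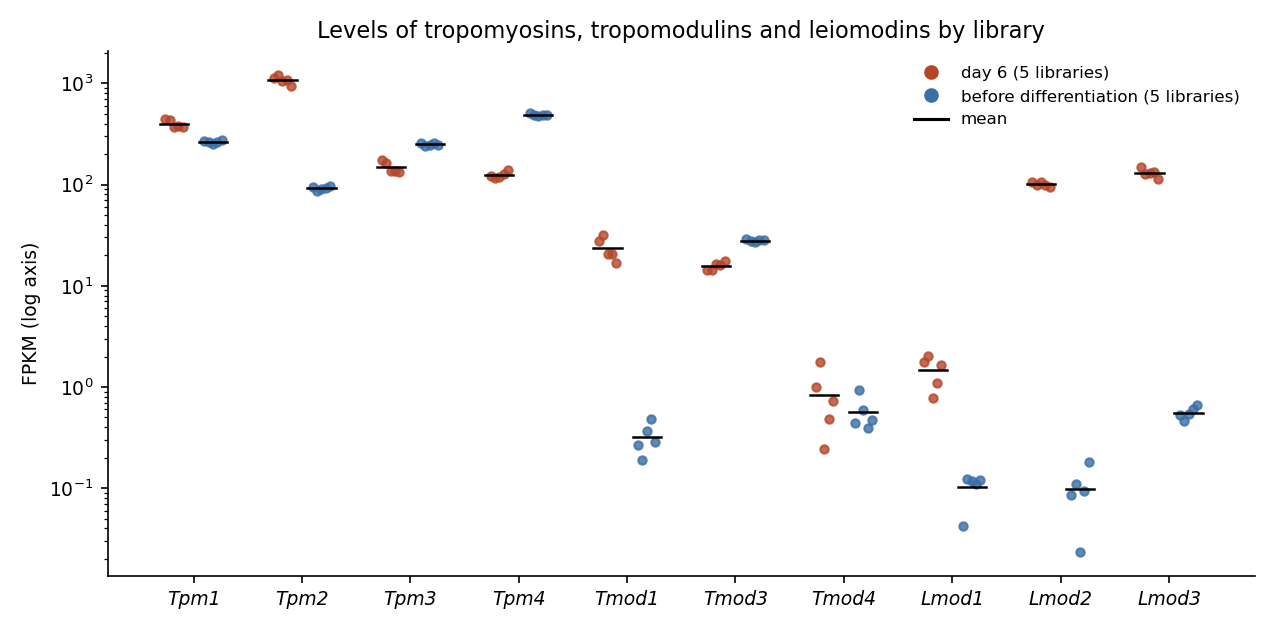
FPKM on a log axis for each of the 10 genes, with a point per library (5 on day 6, left, and 5 before differentiation, right) and a line at the mean. Tpm2, Tmod1, Lmod1, Lmod2 and Lmod3 show wide gaps upward on day 6, Tpm4 a wide gap downward (125 against 492 FPKM), and the libraries of Tmod4 overlap.

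Of the tropomodulins, Tmod1 rose, Tmod3 fell and Tmod4 stayed near the limit of detection. Tmod1 caps thin filaments in striated muscle and actin of the red cell membrane, and lies on chromosome 4 from 46038935 to 46116032. It was at 28.0, 31.8, 20.6, 20.6 and 16.9 FPKM on day 6, against 0.266, 0.188, 0.366, 0.486 and 0.285 FPKM before differentiation. Every day 6 library was far above every other, with replicates 1 and 2 the highest. Tmod1 was 75.1-fold higher on day 6 (log2 fold change 6.23, standard error 0.275, edgeR adjusted p = 3.44e-09). Before differentiation its counts came to 91 in all, and the ratio of summed counts was 77.0 with a 95% interval of 62.7 to 95.8 (exact binomial, counting error only). Tstd2, a gene on the opposite strand, shares 1287 exon bases with Tmod1 and had 411 to 515 counts on day 6 and 534 to 667 before differentiation, and what part of the few Tmod1 counts before differentiation came from it was not tested.

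Tmod3, the tropomodulin found in most cell types, lies on chromosome 9 from 75497796 to 75559657. It was at 14.4, 14.4, 16.5, 16.0 and 17.5 FPKM on day 6, against 28.8, 27.5, 26.8, 28.2 and 28.3 FPKM before differentiation. No libraries overlapped between the conditions, and day 6 replicates 1 and 2 were the lowest. The decrease was 1.75-fold (log2 fold change -0.81, standard error 0.0546, edgeR adjusted p = 1.75e-10). Tmod4, a tropomodulin of adult fast skeletal muscle, lies on chromosome 3 from 95124476 to 95129209. It had 26, 42, 5, 10 and 14 counts on day 6, against 10, 22, 16, 8 and 10 counts before differentiation. These ranges overlap fully, and replicates 1 and 2 of day 6 held most of its 97 day 6 counts. Tmod4 averaged 0.839 ± 0.582 FPKM on day 6 and 0.568 ± 0.222 FPKM before differentiation (SD, n = 5), and the difference did not pass (log2 fold change 0.60, standard error 0.435, edgeR adjusted p = 0.215). Without day 6 replicates 1 and 2 the log2 fold change was -0.24, and with only these as day 6 libraries it was 1.33 (edgeR adjusted p = 0.00571), so the value rests on them. These are the day 6 libraries with the most Tmod4 counts, so that p-value is no evidence that Tmod4 rose. The ratio of summed counts was 1.54 with a 95% interval of 1.11 to 2.14 (exact binomial), which covers counting error only and not the spread between libraries.

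All 3 leiomodins rose, and Lmod2 and Lmod3 had the largest fitted increases among the 10 genes, while Tmod1 rose more than Lmod1. Lmod2, which elongates thin filaments in heart and is also found in skeletal muscle, lies on chromosome 6 from 24597771 to 24605414. It was at 106, 98.5, 105, 98.5 and 93.9 FPKM on day 6, while before differentiation it had 3, 4, 1, 3 and 6 counts, or 0.0235 to 0.183 FPKM. The gene was thus almost silent before differentiation and alike in all day 6 libraries, which had a coefficient of variation of 5.00%, the lowest among the 10 genes. It rose 1030.2-fold (log2 fold change 10.01, standard error 0.128, edgeR adjusted p = 3.90e-20), the 23rd largest fitted increase of all genes tested. With only 17 counts before differentiation, the ratio of summed counts was 1073 with a 95% interval of 669.9 to 1842 (exact binomial). Of the 7 heart muscle markers 4 were tested, and Myl4 and Myh6 were higher and Nppb and Nkx2-5 lower on day 6. Their summed level was 1327 to 1716 CPM on day 6, nearly all from Myl4, and 5.65 to 7.99 CPM before differentiation, Myl7 had 0 counts, Nppa had 3 on day 6 and 5 before, Ryr2 had 1 in each condition, and what they have to do with Lmod2 was not tested.

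Lmod3, the leiomodin of skeletal muscle, whose loss causes nemaline myopathy in humans, lies on chromosome 6 from 97238528 to 97252780. It was at 148, 128, 131, 132 and 114 FPKM on day 6, against 0.524, 0.458, 0.536, 0.602 and 0.669 FPKM before differentiation. The gap was wide in every library, and Lmod3 was the most abundant leiomodin in both conditions. It rose 237-fold (log2 fold change 7.89, standard error 0.103, edgeR adjusted p = 4.85e-20), the 151st largest fitted increase. Lmod1, the leiomodin of smooth muscle, lies on chromosome 1 from 135324807 to 135368065. It was at 1.78, 2.03, 0.785, 1.10 and 1.63 FPKM on day 6, against 0.0425, 0.123, 0.117, 0.109 and 0.122 FPKM before differentiation. The conditions did not overlap, but its highest day 6 library remained far below the lowest of Lmod2 or Lmod3. Lmod1 rose 14.3-fold (log2 fold change 3.83, standard error 0.317, edgeR adjusted p = 3.09e-09), with 37 counts before differentiation and a ratio of summed counts of 14.7 (95% interval 10.5 to 21.1, exact binomial). Of 8 smooth muscle markers 7 were tested, of which 4 were higher (Acta2, Smtn, Mylk and Synpo2) and 3 lower (Actg2, Cnn1 and Tagln), with a summed level of 1710.2 to 2143 CPM on day 6 and 1071 to 1148 CPM before differentiation. Most of that level came from Acta2 (means of 1269 and 824 CPM). Myh11, the smooth muscle myosin heavy chain, had 13 counts over the day 6 libraries and 4 before differentiation, and whether Lmod1 moved with these genes was not tested.

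**Figure D2:**
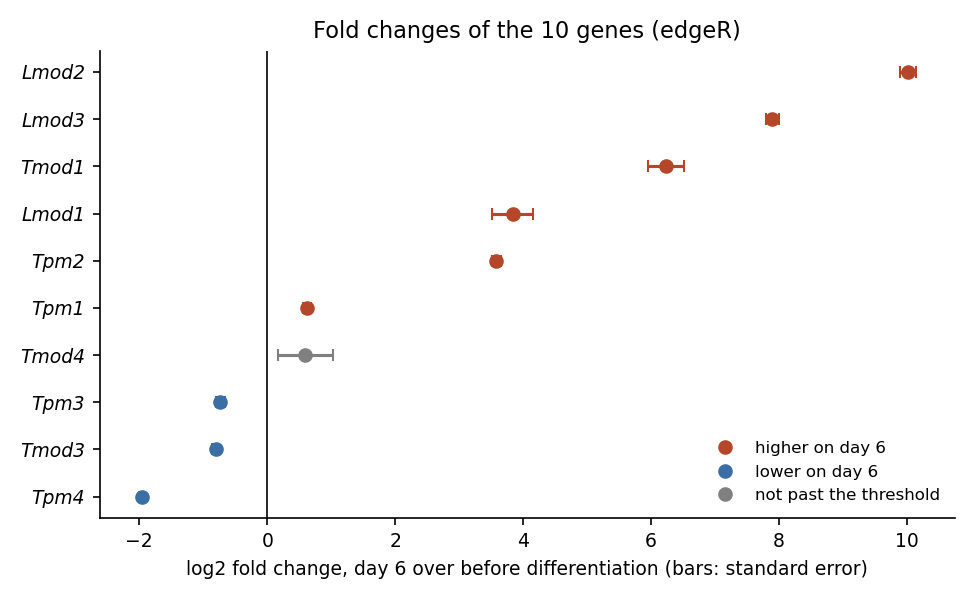
The log2 fold change of day 6 over before differentiation for the 10 genes, ordered by size, with the standard error of the edgeR fit as bars. Lmod2 stands highest at 10.01 and Tpm4 lowest at -1.96, and the value of Tmod4 (0.60) did not pass the test.

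Ordered by FPKM, the 10 genes on day 6 ran Tpm2, Tpm1, Tpm3, Lmod3, Tpm4, Lmod2, Tmod1, Tmod3, Lmod1 and Tmod4. Neighbours whose libraries overlapped, so that their order is not settled, were Tpm3 and Lmod3, Lmod3 and Tpm4, Tmod1 and Tmod3, and Lmod1 and Tmod4. Before differentiation the order ran Tpm4, Tpm1, Tpm3, Tpm2, Tmod3, Tmod4, Lmod3, Tmod1, Lmod1 and Lmod2. There the libraries of Tpm1 and Tpm3, Tmod4 and Lmod3, Lmod3 and Tmod1, and Lmod1 and Lmod2 overlapped. Lmod2 and Lmod1 thus had the lowest levels before differentiation, in an order that is not settled. On day 6 Lmod2 lay between Tpm4 and Tmod1 in FPKM, with no overlap. The orders also depend on the gene length used. With all exon bases of GENCODE M21 as gene length, Tpm3 made up 4.97% of the tropomyosins on day 6 and Tpm4 10.4%, which reverses their order. The full orders were not redone with that length.

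The make-up of each family was compared as the share of a gene in the summed FPKM of its family, by an exact two-sided permutation test over the libraries, adjusted over the 10 shares. The smallest p this test can give is 0.00794, adjusted to 0.00992. Tpm2 made up 61.6 ± 1.68% of tropomyosin FPKM on day 6 and 8.35 ± 0.287% before differentiation (SD, n = 5, exact permutation test, adjusted p = 0.00992). Tpm4 made up 7.18 ± 1.09% on day 6 and 44.8 ± 0.521% before differentiation, and Tpm3 8.46 ± 0.510% on day 6 and 22.8 ± 0.459% before differentiation (exact permutation test, adjusted p = 0.00992 each). With all exon bases as gene length Tpm3 made up 4.97% on day 6 and 12.9% before differentiation, a difference of -7.91 in place of -14.4 percentage points (exact permutation test, adjusted p = 0.00992). The most abundant tropomyosin was Tpm2 on day 6 and Tpm4 before differentiation. The share of Tpm1 was 22.8 ± 0.800% on day 6 and 24.1 ± 0.589% before differentiation (exact permutation test, adjusted p = 0.0353). This small difference did not hold with raw counts (-1.33 percentage points, exact permutation test, adjusted p = 0.0794) or with all exon bases as gene length (-0.23 percentage points, exact permutation test, adjusted p = 0.468), or without any of the libraries before differentiation (adjusted p = 0.0529 to 0.0794). Summed over the family, tropomyosin FPKM were 1756 ± 147 on day 6 and 1099 ± 28.1 before differentiation (SD, n = 5), a 1.60-fold rise without overlap. Tpm3 and Tpm4 fell without overlap, and Tpm2 rose 11.97-fold. The smallest p of these 3 shares was thus fixed in advance and adds nothing to the fits of the single genes.

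Among tropomodulins, Tmod1 made up 57.9 ± 7.44% of the FPKM on day 6 and 1.11 ± 0.396% before differentiation, and Tmod3 40.1 ± 8.19% on day 6 and 96.9 ± 0.624% before differentiation (SD, n = 5, exact permutation test, adjusted p = 0.00992 each). The tropomodulin sum rose 1.39-fold without overlap, while Tmod3 fell and Tmod1 rose far more. These 2 p-values were thus also fixed in advance by the levels of the single genes. Tmod1 led in day 6 replicates 1 to 4, with 64.4%, 66.4%, 55.2% and 55.6%, while in replicate 5 it had 48.2% and Tmod3 49.8%. With all exon bases of GENCODE M21 as gene length, which is 11151 bases for Tmod3 in place of 3578, Tmod1 made up 76.1 ± 5.05% on day 6. The share of Tmod4 was 1.99 ± 1.14% on day 6 and 1.98 ± 0.790% before differentiation, a difference of 0.01 percentage points (exact permutation test, adjusted p = 0.992). Among leiomodins, Lmod3 made up 56.1 ± 1.39% on day 6 and 73.9 ± 6.25% before differentiation, Lmod2 43.3 ± 1.40% on day 6 and 12.6 ± 5.78% before differentiation, and Lmod1 0.634 ± 0.227% on day 6 and 13.5 ± 4.55% before differentiation (exact permutation test, adjusted p = 0.00992 each). The leiomodin shares before differentiation rest on 113, 17 and 37 counts of Lmod3, Lmod2 and Lmod1. The leiomodin sum rose 306-fold, against 14.3-fold for Lmod1 and 1030-fold for Lmod2. The smallest p of the Lmod1 and Lmod2 shares thus follows from these levels and adds nothing to the fits of the single genes. The difference for Lmod3 was -17.8 percentage points, but -9.10 with raw counts and -6.10 with 0.1 FPKM added to every value, and that for Lmod1 was -12.9, but -20.6 with raw counts, all past the test (exact permutation test, adjusted p = 0.00992 to 0.0298).

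**Figure D3:**
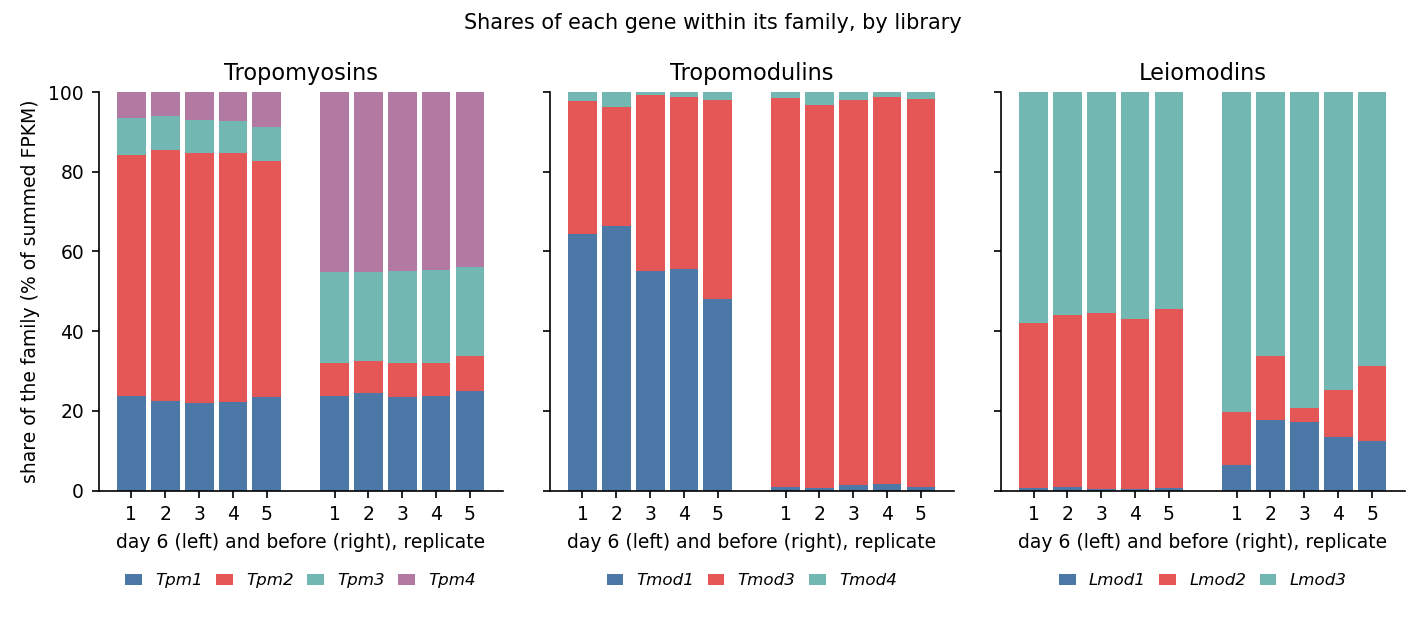
Share of each gene in the summed FPKM of its family (percent, from 0 to 100), with a stacked bar per library, day 6 on the left and before differentiation on the right of each panel. Tpm2 fills 59.1% to 63.0% of the tropomyosin bars on day 6, Tmod1 48.2% to 66.4% of the tropomodulin bars, and Tmod3 at least 96.0% of the tropomodulin bars before differentiation.

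Ratios between genes and families were tested in the same way, with p-values adjusted over 6 ratios. Leiomodin FPKM exceeded tropomodulin FPKM 5.81-fold on day 6 and were 0.0261 of them before differentiation (geometric means), a log2 difference of 7.80 (exact permutation test, adjusted p = 0.00952). The day 6 log2 ratio was 2.54, but 1.92 with raw counts and 3.27 with all exon bases as gene length. Tropomodulins and leiomodins together came to 0.155 of tropomyosin FPKM on day 6 and 0.0269 before differentiation, a log2 difference of 2.53 (exact permutation test, adjusted p = 0.00952), which was 1.94 with raw counts and 4.02 with all exon bases as gene length. The ratio of Tpm2 to Tpm4 was 8.65 on day 6 and 0.186 before differentiation, and that of Tpm1 to Tpm3 2.70 on day 6 and 1.05 before differentiation (exact permutation test, adjusted p = 0.00952 each). The ratio of Tmod1 to Tmod3 was 1.46 on day 6 and 0.0108 before differentiation (exact permutation test, adjusted p = 0.00952). In the ratios of Tpm2 to Tpm4, Tpm1 to Tpm3 and Tmod1 to Tmod3, a gene that rose was set over a gene that fell. None of these genes overlapped between the conditions. Their smallest p was thus fixed in advance and adds nothing to the fits of the single genes. The same holds for both ratios that include the leiomodins. The leiomodin sum was 232 ± 16.7 FPKM on day 6 and 0.759 ± 0.133 FPKM before differentiation (SD, n = 5). The ratio of Tmod4 to Tmod3 was 0.0434 on day 6 and 0.0193 before differentiation, and did not pass (log2 difference 1.17, exact permutation test, adjusted p = 0.0873), although without day 6 replicate 3 it did (log2 difference 1.56, exact permutation test, adjusted p = 0.0238). Without day 6 replicate 2 the log2 difference was 0.79, and without replicates 1 and 2 it was 0.44 (exact permutation test, adjusted p = 0.159 and 0.375).

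The day 6 libraries varied more than those before differentiation for the 4 tropomyosins and Tmod3, with no test made of the variation, and replicates 1 and 2 often lay apart from replicates 3, 4 and 5. For 7 of the 10 genes both of these libraries were outside the range of the other 3 in CPM, against 44.9% of all genes tested. Tpm1, Tpm2, Tpm3, Tmod1, Tmod4 and Lmod1 were higher in replicates 1 and 2, and Tmod3 was lower. In mean log2 CPM, replicates 1 and 2 exceeded the others by 0.25 for Tpm1, 0.23 for Tpm2, 0.35 for Tpm3 and 0.65 for Tmod1, and Tmod3 was at -0.19. For Tpm4, Lmod2 and Lmod3 the libraries interleaved. The coefficient of variation on day 6 was 5.00% to 12.9% for the 4 tropomyosins, Tmod3, Lmod2 and Lmod3, and 25.9%, 34.8% and 69.3% for Tmod1, Lmod1 and Tmod4. The labels give no batch, and the replicates in question were not chosen by label, so no test was made between them. The 9 genes called stayed called, in the same direction, without day 6 replicates 1 and 2, and also without replicates 3, 4 and 5.

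**Figure D4:**
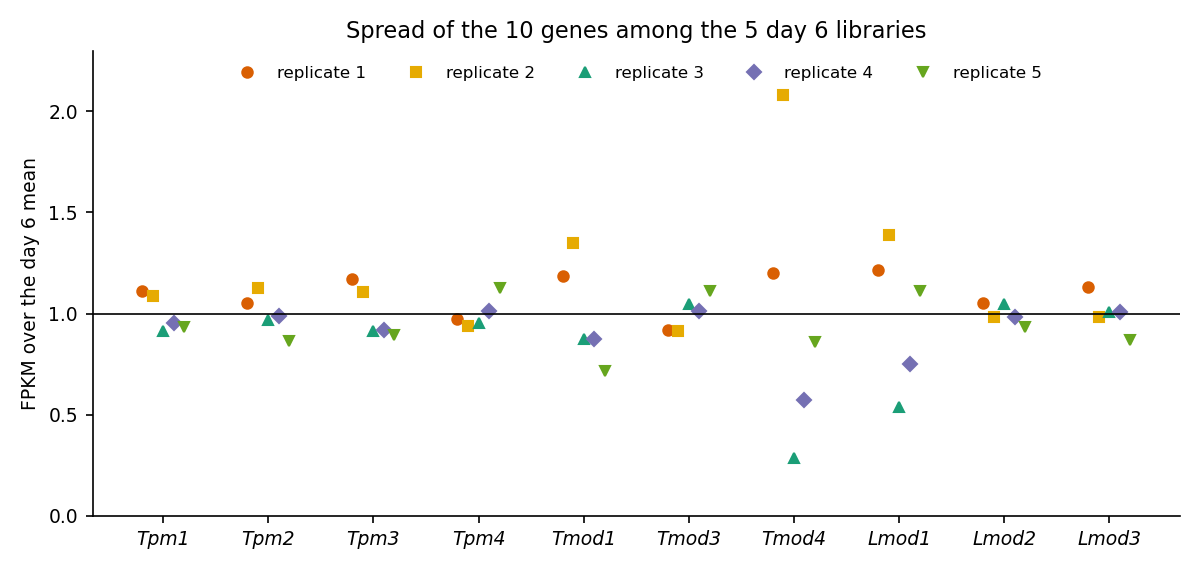
FPKM of each gene in the 5 day 6 libraries, each divided by the gene's mean over those libraries, with a symbol per replicate. Lmod2 lies closest to 1 (coefficient of variation 5.00%), and Tmod4 spreads widest (69.3%).

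The genes that work with these families were counted from lists. Of 10 actins and troponins of the striated thin filament 9 were tested, and all 9 were higher on day 6, where 40.1% of all genes tested were, with a median log2 fold change of 8.25 against 0.01 over all genes tested. Acta1, skeletal actin and the most abundant of them, was at 2281 ± 305 FPKM on day 6 and 7.75 ± 0.474 FPKM before differentiation (SD, n = 5, edgeR adjusted p = 4.00e-18). Tnnt3, the fast troponin T that binds tropomyosin, and Actc1, cardiac actin, had the largest increases (905-fold and 725-fold, edgeR adjusted p = 8.49e-14 and 6.13e-13). Of 14 genes of thin filament length and ends 13 were tested, of which 9 were higher and 4 lower, against 40.1% higher and 39.7% lower of all genes tested, with a median of 1.58. Cap2, a cyclase-associated actin protein, and Mypn, myopalladin, had the largest fitted increases, with 8571 and 2659 counts on day 6, against only 5 and 4 counts before differentiation. Klhl41, a kelch protein of skeletal muscle, was the most abundant, at 268 ± 37.5 FPKM on day 6 and 0.726 ± 0.103 FPKM before differentiation (edgeR adjusted p = 1.50e-16). Tmod2, the tropomodulin of neurons, and Nebl, nebulette, were lower (log2 fold changes -1.55 and -1.03, edgeR adjusted p = 0.00194 and 6.79e-06), and Tmod2 had 2 to 21 counts per library on day 6 and 26 to 32 before differentiation. Neb, nebulin, which spans the thin filament, and Klhl40, which stabilizes nebulin and Lmod3, were picked after their values were seen. They stood at 86.5 ± 10.4 and 37.1 ± 2.02 FPKM on day 6, against 0.161 ± 0.0411 and 0.392 ± 0.0914 FPKM before differentiation (edgeR adjusted p = 2.58e-13 and 6.43e-19).

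Partners of cytoskeletal tropomyosin and genes of actin turnover mostly fell. Of 15 stress fibre partners 11 were lower, 3 higher and 1 not called, where 39.7% of all genes tested were lower and 40.1% higher, with a median log2 fold change of -0.89. Actb, cytoplasmic beta actin, the most abundant, was at 565 ± 32.6 FPKM on day 6 and 2338 ± 74.6 FPKM before differentiation (SD, n = 5, edgeR adjusted p = 1.57e-16), a 4.09-fold decrease beside the 3.89-fold decrease of Tpm4. Tagln2, transgelin 2, fell 8.05-fold, while Cnn3, calponin 3, and Myl12b, a regulatory light chain of nonmuscle myosin, rose 1.76-fold and 1.39-fold (edgeR adjusted p = 3.40e-12, 3.84e-12 and 6.44e-07). Of 12 genes of actin turnover 10 were lower, 1 higher and 1 not called, against the same shares of all genes (39.7% lower, 40.1% higher), with a median of -1.14. Cfl1, cofilin 1, fell 3.85-fold and Diaph3, a formin, 9.89-fold, and Gsn, the severing protein gelsolin, rose 2.05-fold (edgeR adjusted p = 2.80e-16, 5.21e-15 and 3.14e-12).

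**Figure D5:**
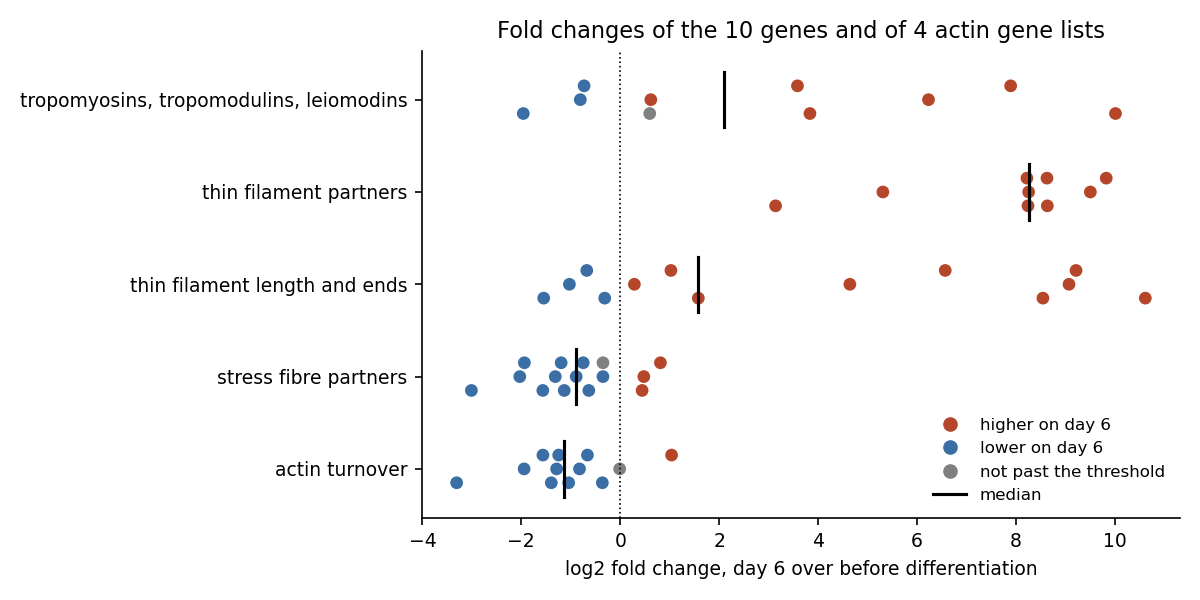
Log2 fold changes of day 6 over before differentiation for the 10 genes and the tested members of 4 lists, with a point per gene and a bar at the median of each list. The thin filament partners have a median of 8.25 and lie above 0 throughout, while most stress fibre partners and genes of actin turnover lie below 0.

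For the most abundant gene of each family on day 6, the genes with the most similar profile were sought among the 10751 genes that averaged 5 CPM or more in the higher condition, by the root mean square difference of centred log2 CPM over the 10 libraries, with a prior count of 2 in the log. For Tpm2 these were Dusp27 (0.0912), Actn3 (0.0940), the fast alpha-actinin of the Z-disc, and Hspb2 (0.104), a muscle small heat shock protein. For Lmod3 they were Chrng (0.157), the fetal acetylcholine receptor subunit, Adamtsl2 (0.188) and Myog (0.220), the transcription factor myogenin. For Tmod1 they were Tnfrsf19 (0.269), Gm13398 (0.335) and Tm6sf1 (0.353). Before differentiation Tnfrsf19, Gm13398 and Tm6sf1 averaged 0.0541, 0 and 0.0121 CPM, against 0.999 CPM for Tmod1, and Adamtsl2 averaged 0 CPM, against 1.24 CPM for Lmod3. At such levels the distance depends on the prior count, and these genes do not share the fold change of Tmod1 or Lmod3. The distances describe the libraries at hand and were not tested.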

How the data were processed

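Per the labels and the methods, paired-end reads were filtered with Trimmomatic, mapped to mm10 with STAR 2.5, and the unique alignments were assigned to genes by HTSeq 0.6.1. The authors deposited these raw counts without scaling. The authors also deposited FPKM values, each count scaled by gene length and the column total, and recomputed values differed by at most 4.54e-08. The length lay within 1 base of the longest GENCODE M21 transcript for 74.1% of 34490 genes and for 7 of the 10 genes described. The labels name a NEBNext kit without a strand mark and the methods a directional one, and the counting's strand setting is not given in the sources used here.

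Counts were tested in R 4.3.3 with edgeR 4.0.16: filterByExpr, TMM scaling, condition as the only term, and robust quasi-likelihood tests, with p-values adjusted over all 13085 genes tested by the Benjamini-Hochberg method. Standard errors were derived from the log2 fold change and its F statistic. Column totals of 15367909 to 21622527 counts set the precision, and intervals cover counting error only. Shares and ratios used FPKM and exact permutation tests. The edgeR test was checked on simulated counts. Alternatives were DESeq2 1.42.0, other scaling and filters, a replicate block, a limit of 1 log2, other gene lengths and libraries left out. Genes, lists and tests were chosen with earlier results of these data known. The naming rule covers all 10 genes, the 3 nearest profiles to the most abundant gene of each family, and the most changed and most abundant genes of each list.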

Additional observations from a re-analysis of the deposited data

Results flagged for a closer look

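Of 52 sets of 5 libraries checked (levels, shares and ratios in each condition), 2 had a library far from the other 4 by Dixon's ratio (critical value 0.71), and chance alone flags about 1 in 20. The first was Lmod1 before differentiation, at 0.0425 FPKM in replicate 1 (3 counts) with the others between 0.109 and 0.123 FPKM. The second was the log2 ratio of leiomodin to tropomodulin FPKM on day 6, at 2.26 in replicate 2 with the others between 2.56 and 2.67.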

How the results depend on the processing

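Every log2 fold change of the 9 genes called kept its direction and its call under the 21 edgeR and DESeq2 alternatives, with these exceptions: Tpm1, Tpm3 and Tmod3 did not pass the test against a change of more than 1 log2, and Lmod1 did not reach the filter of 5 CPM in at least 5 libraries, nor did Tmod4. With the limit of 1 log2, 3399 genes were called in all, 1892 higher and 1507 lower, of the 10 genes 5 were higher and 1 lower, and of the genes of the 4 actin lists 16 were higher and 13 lower, in place of 22 and 25. Leaving out a library in turn gave 10297 to 10461 calls. Over the scalings and filters the median change across all genes tested lay between -0.0047 and 0.09 on the log2 scale. The replicate numbers did not pair the libraries (correlations of deviations -0.0452 to 0.00996, and 0 of 5 day 6 libraries closest to their own number). With the replicate block, edgeR called 5165 genes higher and 5138 lower, and 6 and 3 of the 10 genes as before. With sign flips within replicate numbers as the block, 0 shares and 0 ratios passed, since the smallest p that this test allows is 0.0625. Leaving out a library in turn, 8 to 9 of the 10 shares and 5 to 6 of the 6 ratios differed. The exon length of GENCODE M21 and the joint removal of libraries for shares and ratios were added after the data were seen. Few counts before differentiation limit the folds of Lmod2, Lmod1 and Tmod1.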

Other observations

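The listed genes Tnnc2 and Kbtbd13 were near the limit of detection. Tnnc2, fast skeletal troponin C, had 2 to 7 counts per library on day 6 and 0 before differentiation, in the same libraries in which Tnnc1, the slow and cardiac troponin C, averaged 1501 CPM on day 6 and 4.96 CPM before differentiation. Kbtbd13, a kelch protein linked to nemaline myopathy in humans, had 0 to 14 counts per library on day 6 and 0 before differentiation.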
